A study of Mus musculus with 8 samples.

Results

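Neutrophils store antimicrobial proteins and proteases in granules and carry calprotectin, the S100a8 and S100a9 dimer, in their cytosol. The 10 genes described here were chosen by name: the calprotectin subunits S100a8 and S100a9, the granule genes Ngp, Mpo, Ltf, Camp, Elane, Mmp8 and Mmp9, and the chemokine receptor Cxcr2. All array probes whose gene name matched one of them were used, 12 probes in all. A gene entered the test if 2 or more of the 8 arrays had one of its probes well above background, by the scanner software's flag. Of the 10 genes, 9 were kept, with 10 of their 12 probes, among 25884 genes kept on the arrays. The Cxcr2 probe was dim, by that flag, on all 8 arrays.

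RNA was measured on 8 single-colour arrays, 1 per group, from C57Bl/6J mice, with the source labelled astrocyte and the tissue spinal cord. The groups were Cx47-deficient and wild-type (WT) mice with experimental autoimmune encephalomyelitis (EAE), an autoimmune inflammatory disease of the central nervous system, and Cx47-deficient and WT mice with EAE and iguratimod, a small-molecule antirheumatic drug. The remaining groups were Cx47-deficient and WT mice with chronic EAE, and naive Cx47-deficient and naive WT mice, whose genotype was taken from the sample titles. The series title gives the knockout as conditional and specific to oligodendroglia. The titles mark the WT mice as FL or F/F, and the driver of the deletion, the number and age of the animals, the iguratimod dose and how the cells were isolated were not given in the sources used here.

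All levels below are log2 signals minus the array's 75th percentile of signal, so that 0 is the 75th percentile and 1 unit is a 2-fold step. Levels are compared between arrays for 1 probe and not between probes. The 10 astrocyte marker genes examined were all well above background on all 8 arrays. So were the 8 oligodendrocyte and the 8 neuron markers, so the arrays held RNA of other cell types beside the labelled astrocytes. Both chronic arrays shared a second slide, on which 71.3% and 72.0% of spots were well above background in Cx47-deficient and WT mice, against 59.7% to 65.8% on the 6 other arrays. Slide and chronic stage cannot be told apart. In such bulk RNA, fewer cells of a type and less RNA per cell cannot be told apart either.

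Granule proteins are made in sequence as granulocytes mature. Mpo (myeloperoxidase) and Elane (neutrophil elastase) belong to the primary granules of promyelocytes. Ltf (lactoferrin, which binds iron), Camp (the cathelicidin antimicrobial peptide), Ngp (neutrophilic granule protein) and Mmp8 (neutrophil collagenase) belong to the secondary granules, and Mmp9 (gelatinase B) to the tertiary granules. Calprotectin binds zinc and manganese and acts on Toll-like receptor 4 and on the receptor Ager once released. In EAE, neutrophils enter the spinal cord with other leukocytes.

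S100a8 and S100a9 lie beside each other on chromosome 3 (GRCm38.p6, chr3:90669071-90670034 and chr3:90692630-90695721). Ngp, Ltf, Camp and Mmp8 are on chromosome 9, where Camp (chr9:109847377-109849456), Ngp (chr9:110419808-110423012) and Ltf (chr9:111019292-111042766) lie near each other. Promoters were found in the RefSeq table of GRCm38.p6 for 9 of the 10 genes. These include Cxcr2, which was not kept for the test, and lack Mmp9. Each promoter ran from 250 bases before to 50 bases after the start. Both strands were searched for 3 motifs of granulocyte transcription factors. The C/EBP motif TTGCNCAA matched in 3 of the 9, Ngp, Ltf and Mmp8, against 2.94% of 32851 promoters. The PU.1 motif GAGGAA matched in 6 of 9, Cxcr2 among them, against 28.3% of promoters. The RUNX motif TGTGGT matched in 2 of 9, against 16.8%. No match of these motifs overlapped another. Camp held none of these letters in its window. Of these, 5 promoters are shown because their genes carry the results below, read 5′ to 3′ on the gene's strand with motif matches in capitals.

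Ngp promoter, chr9:110419558-110419857, plus strand: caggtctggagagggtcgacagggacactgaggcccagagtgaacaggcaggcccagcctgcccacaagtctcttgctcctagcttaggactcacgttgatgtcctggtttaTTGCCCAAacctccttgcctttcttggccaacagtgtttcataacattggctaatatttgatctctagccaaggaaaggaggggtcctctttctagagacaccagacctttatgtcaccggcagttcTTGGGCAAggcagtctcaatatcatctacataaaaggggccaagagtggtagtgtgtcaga
Ltf promoter, chr9:111019042-111019341, plus strand: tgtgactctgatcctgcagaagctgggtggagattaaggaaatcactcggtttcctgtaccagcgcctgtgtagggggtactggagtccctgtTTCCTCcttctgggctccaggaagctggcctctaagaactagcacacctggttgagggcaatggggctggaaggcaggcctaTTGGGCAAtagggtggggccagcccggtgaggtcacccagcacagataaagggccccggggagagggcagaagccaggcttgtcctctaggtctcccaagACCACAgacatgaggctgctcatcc
Mmp8 promoter, chr9:7558179-7558478, plus strand: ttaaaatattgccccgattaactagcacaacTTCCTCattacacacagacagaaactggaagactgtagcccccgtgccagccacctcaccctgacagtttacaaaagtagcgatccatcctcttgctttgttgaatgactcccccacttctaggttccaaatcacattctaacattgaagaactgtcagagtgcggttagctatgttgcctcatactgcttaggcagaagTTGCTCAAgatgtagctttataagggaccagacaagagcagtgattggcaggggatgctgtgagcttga
S100a8 promoter, chr3:90668821-90669120, plus strand: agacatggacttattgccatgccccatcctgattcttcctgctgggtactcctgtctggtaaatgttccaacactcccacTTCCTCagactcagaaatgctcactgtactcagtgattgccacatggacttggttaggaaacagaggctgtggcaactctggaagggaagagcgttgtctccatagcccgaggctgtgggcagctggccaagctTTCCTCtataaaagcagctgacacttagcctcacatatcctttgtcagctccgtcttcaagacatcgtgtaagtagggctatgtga
S100a9 promoter, chr3:90695672-90695971, minus strand: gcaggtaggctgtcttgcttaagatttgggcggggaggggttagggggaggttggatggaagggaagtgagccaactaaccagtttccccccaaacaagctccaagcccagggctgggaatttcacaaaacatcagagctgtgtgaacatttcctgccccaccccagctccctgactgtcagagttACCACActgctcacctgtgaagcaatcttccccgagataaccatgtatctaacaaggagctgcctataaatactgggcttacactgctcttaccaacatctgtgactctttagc

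In Ngp the C/EBP matches are TTGCCCAA, whose first base is at -138 from the start, and TTGGGCAA, the motif on the other strand, at -11. Ltf has TTGGGCAA at -75 and Mmp8 TTGCTCAA at -19. S100a8 has TTCCTC, the PU.1 motif on the other strand, at -170 and -36, and S100a9 has ACCACA, the RUNX motif on the other strand, at -64. A match is a description of the letters and not of binding.

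The 60-base probes that measured S100a8, Ltf and Ngp are shown as the scanner files give them, with positions on the mm9 build, because the largest differences below rest on 1 probe each.

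S100a8 probe, chr3:90473778-90473837: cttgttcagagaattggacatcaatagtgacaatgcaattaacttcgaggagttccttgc
Ltf probe, chr9:110942873-110942932: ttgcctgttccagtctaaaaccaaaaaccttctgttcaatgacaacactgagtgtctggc
Ngp probe, chr9:110324266-110324814: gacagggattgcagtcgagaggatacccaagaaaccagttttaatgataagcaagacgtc

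With EAE, the calprotectin genes were higher than in naive mice in both genotypes. S100a9 was at 3.07 in Cx47-deficient and 2.49 in WT mice with EAE, 1.81 and 2.33 with iguratimod, 0.78 and 1.16 in chronic EAE, and -0.62 and -0.38 in naive mice. All 6 EAE arrays were above both naive arrays, and the 4 EAE arrays of the first slide, with or without iguratimod, were above both chronic ones. In the linear model across all genes (limma, condition and genotype as terms), S100a9 was 3.28 ± 0.31 log2 units higher with EAE than in naive mice (SE, 2 arrays each, 9.74-fold, limma adjusted p = 0.0472). It was the only one of the 9 genes called, at a rate of 0.247% of all genes called higher. That call did not hold when any 1 array was left out (adjusted p from 0.0673 to 0.33) or with the slide of the chronic arrays left out (adjusted p = 0.129).

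S100a8 followed S100a9 closely. It was at 1.47 in Cx47-deficient and 0.63 in WT mice with EAE, 0.20 and 0.79 with iguratimod, -0.84 and -0.90 in chronic EAE, and -2.37 and -1.95 in naive mice. The order of conditions was the same as for S100a9, with no overlap between naive arrays and the others. The fitted difference of EAE from naive was 3.20 ± 0.38 log2 units (9.22-fold), with a limma adjusted p of 0.0618. Over the 8 arrays the levels of S100a8 and S100a9 had a Pearson correlation of 0.99, a description of arrays that share slides and conditions.

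**Figure D1:**
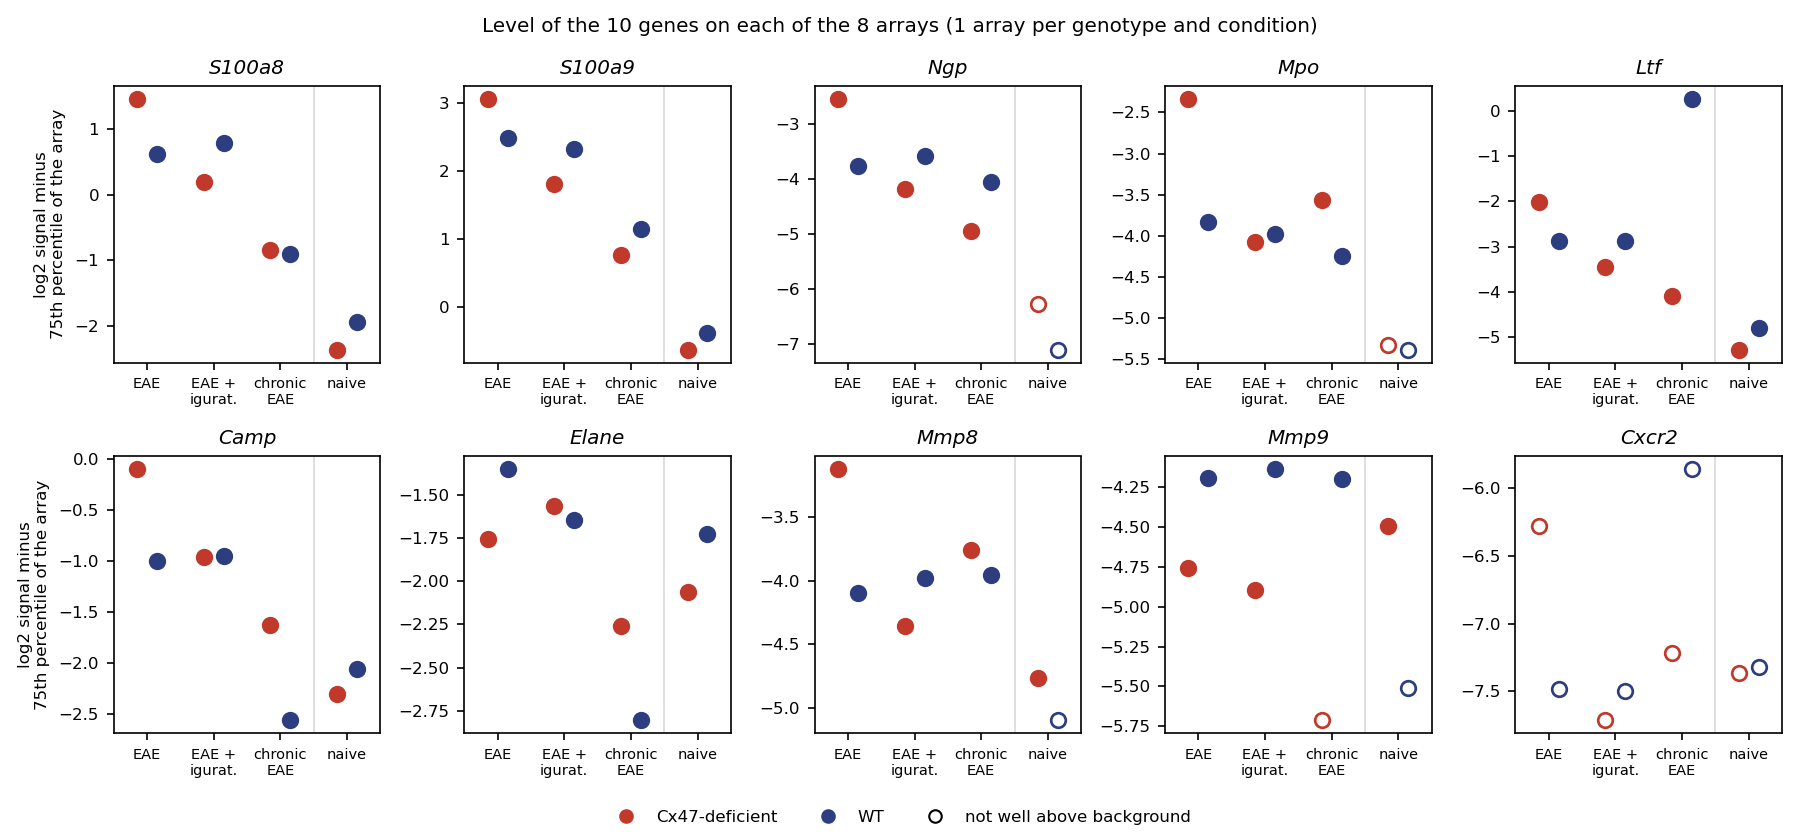
Level of each of the 10 genes (1 panel each, its own vertical scale) on the 8 arrays, as log2 signal minus the 75th percentile of the array, with 1 point per array: EAE, EAE with iguratimod, chronic EAE and naive from left to right, Cx47-deficient in red left of WT in blue. Open points were not well above background. S100a8, S100a9, Ngp, Mpo, Ltf and Mmp8 have all 6 EAE arrays above both naive arrays, and Ltf stands at 0.27 on the WT chronic array.

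Of the primary granule genes, Mpo was higher on every EAE array than on the naive arrays and Elane was not. The kept Mpo probe was at -2.33 in Cx47-deficient and -3.83 in WT mice with EAE, -4.07 and -3.98 with iguratimod, -3.56 and -4.24 in chronic EAE, and at -5.33 and -5.39 in naive mice, not well above background on either naive array. All 6 EAE arrays were above that. EAE was at least 4.35-fold above naive (limma adjusted p = 0.143). The second Mpo probe was well above background only on the Cx47-deficient chronic array, at -4.23, and was not kept. Elane ranged from -2.81 to -1.35 over the 8 arrays. It was at -1.75 in Cx47-deficient and -1.35 in WT mice with EAE, and at -2.06 and -1.72 in naive mice, so that the EAE and naive arrays overlapped. Its fitted difference of EAE from naive was 0.34 ± 0.28 (adjusted p = 0.924).

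Among the secondary granule genes, Ngp was at -2.54 in Cx47-deficient and -3.76 in WT mice with EAE, -4.17 and -3.58 with iguratimod, and -4.95 and -4.05 in chronic EAE. On the naive arrays it was not well above background, at -6.28 and -7.11. The 6 EAE arrays all exceeded both naive arrays, and EAE was at least 4.34-fold above naive (limma adjusted p = 0.113). Camp was at -0.10 in Cx47-deficient and -1.003 in WT mice with EAE, -0.96 and -0.95 with iguratimod, -1.62 and -2.56 in chronic EAE, and -2.30 and -2.06 in naive mice. Its 4 EAE arrays of the first slide were above both naive arrays, while the WT chronic array was below both. The fitted difference of EAE from naive was 1.63 ± 0.36 (3.09-fold, adjusted p = 0.225).

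Ltf was at -2.02 in Cx47-deficient and -2.88 in WT mice with EAE, -3.44 and -2.87 with iguratimod, -4.09 and 0.27 in chronic EAE, and -5.28 and -4.80 in naive mice. The WT chronic array stood above all others. The EAE difference from naive was 2.59 ± 1.23 (adjusted p = 0.857), and ran from 1.26 to 3.93 with each array left out. Without the WT chronic array it was 2.59, with an adjusted p of 0.22. Mmp8 was at -3.12 in Cx47-deficient and -4.10 in WT mice with EAE, -4.35 and -3.98 with iguratimod, -3.76 and -3.96 in chronic EAE, and -4.76 and -5.10 in naive mice, the last not well above background. The 6 EAE arrays were again above both naive ones, by 1.32 ± 0.34 for EAE (2.50-fold, adjusted p = 0.308).

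Mmp9 showed no separation of disease from naive arrays. Its brighter probe was at -4.76 in Cx47-deficient and -4.19 in WT mice with EAE, -4.90 and -4.14 with iguratimod, -5.71 and -4.20 in chronic EAE, and -4.49 and -5.51 in naive mice. The Cx47-deficient chronic and WT naive values were not well above background. The fitted difference of EAE from naive was 0.52 ± 0.59 (adjusted p = 0.929). The second Mmp9 probe was well above background on 2 arrays, both Cx47-deficient, naive and with EAE.

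Together, all 9 genes had a fitted EAE difference above 0, with a median of 2.28 log2 units, or 2.12 with Ngp and Mpo at their lower bounds, beside -0.06 over all 25884 genes. At an unadjusted p under 0.05, 6 of 9 were higher, at a rate of 5.41% over all genes, and these include Ngp and Mpo, whose p rests on naive values below background. Of the 7 others, 4 passed. For 6 of 9 genes all 6 EAE arrays lay above both naive arrays, beside 3.07% of all genes. Without the chronic arrays it was 7 of 9, beside 8.68%. In Cx47-deficient mice 7 of 9 genes were at least 2-fold higher with EAE, beside 5.08% of all genes, and in WT mice 6 of 9, beside 3.35%. Each of these counts of separated arrays and of 2-fold differences includes Ngp and Mpo. Both were dim on the naive arrays and passed the filter only through EAE arrays, which favours such a separation. S100a8 and S100a9 were 14.3-fold and 12.97-fold higher in Cx47-deficient mice, and 5.95-fold and 7.32-fold in WT mice.

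With iguratimod, all 9 genes were again above naive in the fit, with a median of 1.33, or 1.22 with the dim genes at their bounds, against -0.05 over all genes. None of the 9 was called at an adjusted p under 0.05 (limma), beside 0.00386% of all genes called higher and 0% lower. At an unadjusted p under 0.05, 5 of 9 were higher, beside 4.1% of all genes, and 3 of the 7 other than Ngp and Mpo. S100a9 was 2.57 ± 0.31 higher (5.95-fold, adjusted p = 0.101), S100a8 2.65 ± 0.38 (6.28-fold, adjusted p = 0.125), and Ngp at least 2.63-fold.

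In chronic EAE, 8 of 9 genes were above naive, with a median of 1.29, or 1.07 with the dim genes at their bounds, against 0.03 over all genes, and none was called by limma, beside 0.707% of all genes called higher and 0.24% lower. At an unadjusted p under 0.05, 6 of 9 were higher, beside 18.9% of all genes, and 4 of the 7 other than Ngp and Mpo. Both chronic arrays lay above both naive arrays for 6 of 9 genes and below them for 1, Elane, beside 35.4% and 31.2% of all genes. The 6 include Ngp and Mpo, which passed the filter only through EAE arrays. S100a9 was 1.47 ± 0.31 higher (2.77-fold, adjusted p = 0.0723). Elane was the gene below 0, at -0.64 ± 0.28 (adjusted p = 0.184).

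**Figure D2:**
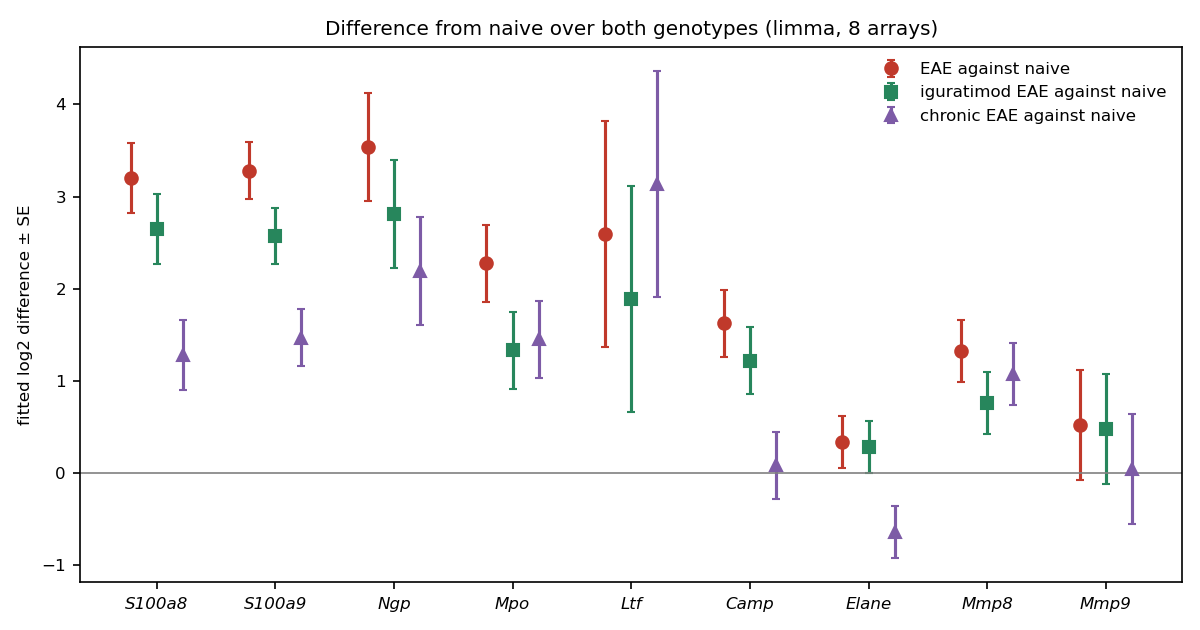
Fitted log2 difference from naive over both genotypes (vertical axis, error bars SE of the limma fit over 8 arrays) for the 9 kept genes, with EAE as circles, EAE with iguratimod as squares and chronic EAE as triangles. S100a8 and S100a9 have differences of 3.20 and 3.28 for EAE, and Elane and Mmp9 are the lowest 2 for EAE, at 0.34 and 0.52. The naive arrays were not well above background for Ngp and Mpo, whose plotted values are no bounds.

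Chronic EAE set against EAE gave the other calls. S100a9 was 1.81 ± 0.31 log2 units lower (log2 difference -1.81, limma adjusted p = 0.0386) and S100a8 1.92 ± 0.38 lower (log2 difference -1.92, limma adjusted p = 0.0428), 2 called of 9 beside 5.44% of all genes called lower and 9.07% called higher. Leaving out any 1 array gave adjusted p values from 0.0502 to 0.192 for S100a9 and from 0.0536 to 0.219 for S100a8. Camp had a difference of -1.54 ± 0.36 (adjusted p = 0.0509) and Elane of -0.98 ± 0.28 (adjusted p = 0.0686). Ltf had a positive difference of 0.54 ± 1.23, being -2.07 between the Cx47-deficient arrays and 3.16 between the WT arrays. Without the WT chronic array the fitted difference of Ltf was -1.61. Among single arrays, 6 of 9 genes were at least 2-fold lower in Cx47-deficient mice with chronic EAE than with EAE, beside 5.59% of all genes. In WT mice 4 of 9 were 2-fold lower and 1, Ltf, higher, beside 12.6% and 18.1%. In 4 of 9 genes the 4 EAE arrays of the first slide all lay above both chronic arrays, beside 32.3% of all genes, a share that the change of slide contains as well.

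Iguratimod set against EAE without it gave a fitted difference below 0 for all 9 genes, with a median of -0.56, beside -0.01 over all genes. None was called, beside 0% of all genes called in either direction, and none had an unadjusted p under 0.05 by limma, beside 0.537% of all genes higher and 1.57% lower. The largest was Mpo, at -0.95 ± 0.42, and S100a9 was at -0.71 ± 0.31.

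The pairs of arrays behind that fit differed by genotype. In Cx47-deficient mice 6 of 9 genes were at least 2-fold lower with iguratimod than without, S100a8, S100a9, Ngp, Mpo, Ltf and Mmp8, beside 3.53% of all genes. Mpo had a log2 difference of -1.74, Ngp of -1.64, Ltf of -1.42, S100a8 of -1.27, S100a9 of -1.26, Mmp8 of -1.23 and Camp of -0.86. In WT mice none of the 9 was 2-fold lower, and none 2-fold higher, beside 1.22% and 3.08% of all genes, and the differences ran from -0.30 for Elane to 0.18 for Ngp. With 1 array per group, the difference between the genotypes could not be tested.

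The summed linear signal of the 9 genes, relative to the 75th percentile, was 5.80 with iguratimod against 13.2 without in Cx47-deficient mice. In WT mice it was 7.99 against 8.45. Such a sum is carried by the brightest probes, here those of S100a9 and S100a8. Further lists of granule genes were lower in both genotypes. The 4 genes kept from a primary granule list summed to 2.50 against 3.27 in Cx47-deficient and 0.819 against 1.37 in WT mice. The 9 secondary and tertiary ones summed to 93.0 against 123 in Cx47-deficient and 55.6 against 69.2 in WT mice. The 15 mature neutrophil genes summed to 42.8 against 67.6 in Cx47-deficient mice and 49.1 against 39.6 in WT mice. That last sum did not follow EAE, being 86.0 in naive Cx47-deficient and 48.9 in naive WT mice. In chronic EAE it was 135 in Cx47-deficient and 147 in WT mice.

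Markers of other cells moved across these 4 arrays as well. The 8 endothelial genes summed to 12.5 with iguratimod against 22.1 without in Cx47-deficient mice, and to 15.4 against 21.2 in WT mice. The 6 kept erythroid genes summed to 22.7 with iguratimod against 36.3 without in Cx47-deficient mice, and 44.9 against 28.6 in WT mice. The haemoglobin gene Hba-a1 was at 3.71 with iguratimod against 4.59 without in Cx47-deficient mice, and at 5.05 against 4.27 in WT mice. Endothelial and erythroid sums were thus lower with iguratimod in Cx47-deficient mice, as the 9 genes were, and the part of blood and endothelium in them was not tested. The 12 monocyte and macrophage genes summed to 70.5 with iguratimod against 72.4 without in Cx47-deficient mice, and to 35.6 against 60.8 in WT mice. The 8 kept T and NK cell genes summed to 4.57 against 4.68 in Cx47-deficient mice and to 2.14 against 3.65 in WT mice. These 2 sums were lower with iguratimod mainly in WT mice.

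**Figure D3:**
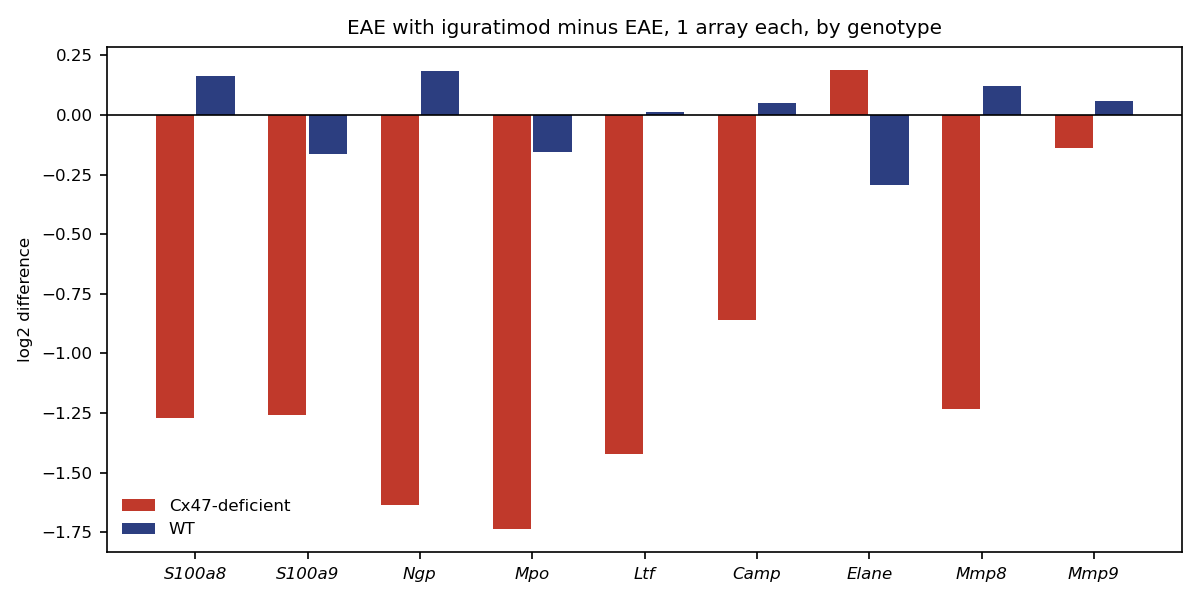
Log2 difference between EAE with iguratimod and EAE without it (vertical axis) for the 9 kept genes, from 1 array each, Cx47-deficient in red and WT in blue. In Cx47-deficient mice 6 of the 9 bars lie below -1, and in WT mice the bars run from -0.30 to 0.18.

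Between genotypes, no gene of the 9 was called across the 4 conditions by limma, beside 0% of all genes in either direction, and none had an unadjusted p under 0.05, beside 3.32% higher and 1.1% lower. The fitted differences of Cx47-deficient from WT ran from -1.13 ± 0.87 for Ltf to 0.54 ± 0.30 for Mpo, with a median of -0.03, beside -0.0018 over all genes. Within EAE, the Cx47-deficient array was above the WT array for 7 of 9 genes, with a median log2 difference of 0.87. Mpo was 2.82-fold and Ngp 2.33-fold higher, the 2 genes past 2-fold, beside 6.71% of all genes higher and 0.677% lower. Within iguratimod, 8 of 9 were lower in Cx47-deficient mice, with a median of -0.52 and none past 2-fold, beside 2.6% of all genes higher and 2.26% lower. In naive mice none of the 7 genes that could be compared was 2-fold apart, beside 8.07% higher and 2.63% lower.

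In chronic EAE, 2 of 9 genes were at least 2-fold lower in Cx47-deficient mice, beside 1.29% of all genes lower and 1.63% higher: Ltf, at a log2 difference of -4.36 (20.6-fold lower), and Mmp9, at least 2.86-fold lower. From the lowest difference up, Ltf ranked 3 of 25635 genes in that pair. Of the other secondary granule genes, Ngp was lower as well, at -0.91 and rank 443. Camp was at 0.94, rank 517 from the highest difference down, and Mmp8 at 0.20. S100a9 was at -0.38, rank 3092 from the lowest up, and S100a8 at 0.06. The primary granule genes were higher, Mpo at 0.67 and Elane at 0.55, and the second Mpo probe, not kept, was at least 3.01-fold higher. In all, 5 of 9 genes were higher and 4 lower, with a median log2 difference of 0.06.

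**Figure D4:**
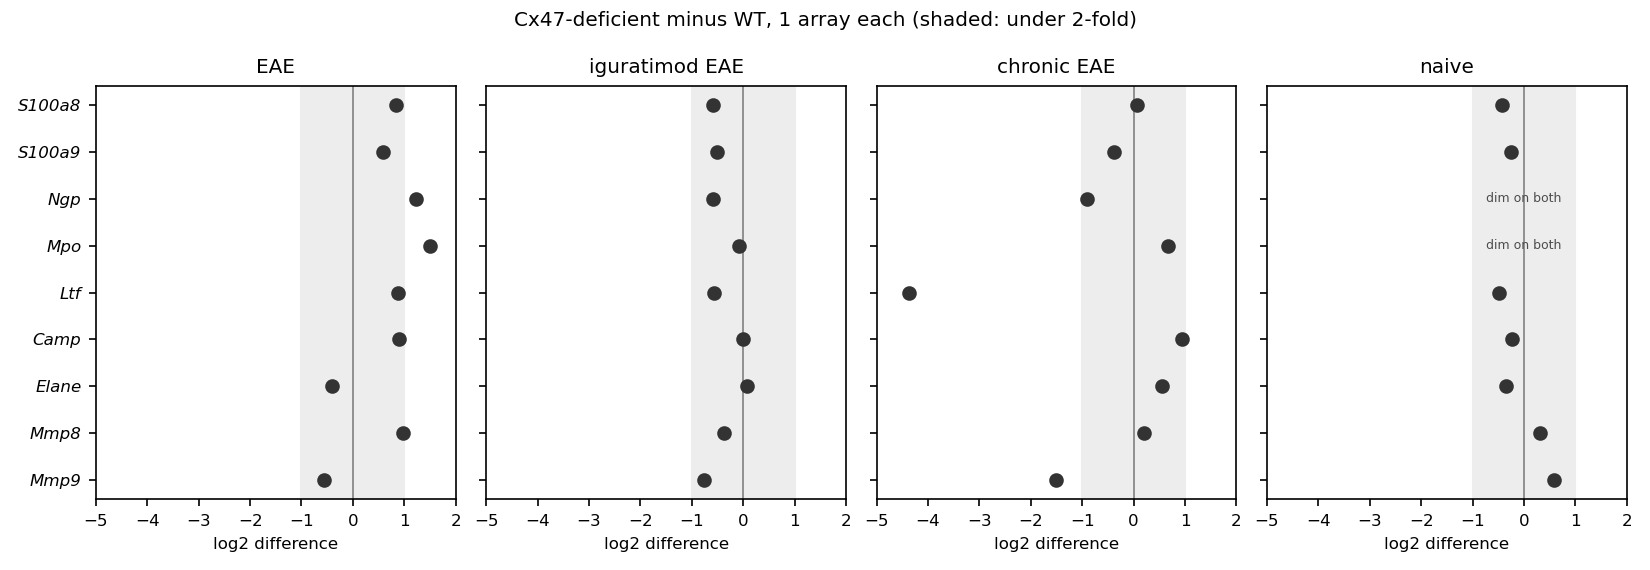
Log2 difference of Cx47-deficient from WT (horizontal axis) for the 9 kept genes (rows) in 4 conditions (panels), from 1 array each, with differences under 2-fold shaded. Ngp and Mpo were dim on both naive arrays. In chronic EAE, Ltf lies at -4.36 and Mmp9 at -1.51, and in EAE Mpo and Ngp lie past 1.

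Several genes made by epithelia, platelets or activated myeloid cells were also at least 2-fold lower on the Cx47-deficient than on the WT chronic array. Krt14, a keratin of basal epithelium, was at -4.99 in Cx47-deficient and -0.98 in WT mice with chronic EAE, and between -5.03 and -3.82 on the other 6 arrays. Krt5, its partner, was at -3.32 and -2.06 on the chronic arrays. The platelet chemokine Ppbp was at -5.76 in Cx47-deficient, not well above background, and -1.25 in WT mice with chronic EAE. Clec4d, a myeloid lectin receptor, was at -6.53, not well above background, against -2.69, and the neutrophil-attracting chemokine Cxcl5 at -5.06 against -2.64. The inflammatory cytokine Il1b was at -4.96 against -2.84. With EAE, Clec4d was at -1.30 in Cx47-deficient and -1.92 in WT mice and Il1b at -1.45 and -1.52, so that the WT chronic array was not the highest for either. The 5 kept keratinocyte and epithelium genes summed to 2.80 against 3.39 there, within the range of 2.84 to 4.50 of the other arrays or just below it. Ager, the receptor of calprotectin, went the other way, at -0.05 in Cx47-deficient and -4.84 in WT mice with chronic EAE, against 0.03 to 0.51 elsewhere. The part of these cells in the Ltf level was not tested.

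**Figure D5:**
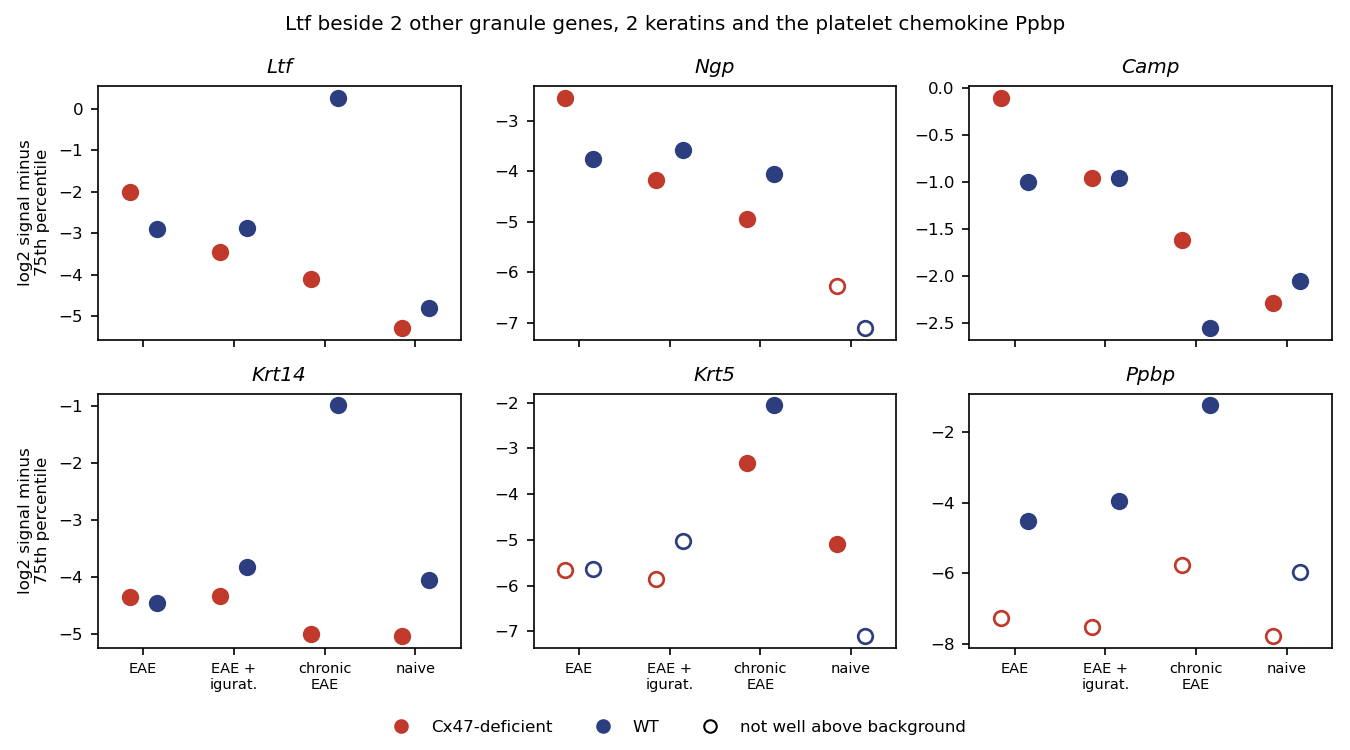
Levels of Ltf, the granule genes Ngp and Camp, the keratins Krt14 and Krt5 and the platelet chemokine Ppbp on the 8 arrays (log2 signal minus the 75th percentile; EAE, EAE with iguratimod, chronic EAE and naive from left to right, Cx47-deficient in red left of WT in blue, open points not well above background). Ltf, Krt14 and Ppbp reach 0.27, -0.98 and -1.25 on the WT chronic array, and Ngp and Camp do not stand out there.

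Other genes of neutrophils, from lists chosen by function, were described the same way. In EAE against naive, 0.247% of all genes were called higher by limma and 0.00386% lower, the shares to set beside the calls of each list. Of 12 further secondary and tertiary granule genes, 9 were kept, and 1 rose with EAE at an adjusted p under 0.05 (limma), with a median log2 difference of 4.14, or 2.68 with the gene dim in naive mice at its bound. That gene was Lcn2, lipocalin 2, which binds iron-carrying siderophores: it was at 2.96 in Cx47-deficient and 1.40 in WT mice with EAE, 1.18 and 0.82 with iguratimod, -1.93 and -1.87 in chronic EAE, and -3.68 and -3.20 in naive mice. It was 5.62 ± 0.50 log2 units higher (49.2-fold, adjusted p = 0.0456). Chil3, a chitinase-like protein, had a difference of 5.12 ± 1.06 (adjusted p = 0.186) and Lyz2, lysozyme, of 4.48 ± 0.47 (adjusted p = 0.0532). Astrocytes and macrophages also make some of these proteins, Lcn2 and Lyz2 among them.

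A list of 7 further genes was set down as primary granule genes, without a check of each. Of these, 4 were kept and none was called with EAE, with 3 above 0. Prtn3 was the gene below 0, at -0.30 ± 0.30 (limma adjusted p = 0.927), and was dim on the Cx47-deficient EAE array. Cst7, cystatin F, a protease inhibitor of leukocytes, had a difference of 5.48 ± 0.79 (adjusted p = 0.0854), with 1 of 2 naive arrays well above background. Hp, haptoglobin, was at least 26.2-fold higher (adjusted p = 0.0515), and Ctsg, cathepsin G, at least 1.93-fold (adjusted p = 0.264). Of 20 markers of mature neutrophils, 15 were kept, 9 were above 0 and none was called, with 9 at an unadjusted p under 0.05, 5 of them dim on both naive arrays. The lectin receptors Clec4d and Clec4e were at least 12.6-fold and 10.8-fold above naive (adjusted p = 0.185 and 0.108). Ly6g, the surface marker of mouse neutrophils, was at -2.54 in Cx47-deficient and -3.07 in WT mice with EAE, and -3.63 and -3.57 with iguratimod. It was not well above background on the chronic or naive arrays, and EAE was at least 5.51-fold above naive (adjusted p = 0.0651). In chronic EAE against EAE, 5.44% of all genes were called lower and 9.07% higher (limma), and the slide changes with the stage. There, 3 of the 4 genes kept from the primary granule list were called lower, Cst7, Hp and Ctsg. Of the 9 secondary and tertiary granule genes 4 were called lower, Lcn2, Chil3, Lyz2 and Cyba, and 1 higher, Itgam, the integrin CD11b. Of the 15 mature neutrophil genes 3 were called lower, Ly6g, Wfdc21 and Ncf1, and 1 higher, Csf3r, the receptor of granulocyte colony-stimulating factor.

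Of 7 granulocyte transcription factors, 5 were kept, and all 5 had EAE differences above 0 with none called. Cebpd was 1.75 ± 0.22 higher (adjusted p = 0.0649), Runx1 1.46 ± 0.23 (adjusted p = 0.0993), and Spi1, which encodes PU.1 and was dim on the naive arrays, at least 1.99-fold (adjusted p = 0.75). In chronic EAE against EAE, 4 of the 5 were called lower, beside the same 5.44% of all genes: Spi1, dim on both chronic arrays, was at least 2.90-fold lower (adjusted p = 0.0386), Cebpd fell by 1.50 ± 0.22 (adjusted p = 0.0367), Cebpa by 1.38 ± 0.26 (adjusted p = 0.0421) and Runx1 by 0.99 ± 0.23 log2 units (adjusted p = 0.0492). Among ligands and receptors of neutrophil attraction, 7 of 12 genes were kept, all 7 had fitted EAE differences above 0, 4 of them with both naive arrays dim, and 1 of these 4, Ppbp, was not above the naive floor. Cxcr4, the receptor that holds neutrophils in marrow, was at least 2.92-fold above naive (adjusted p = 0.0454), and was well above background on the 4 EAE arrays of the first slide alone. Where both naive arrays were dim, as for Cxcr4, Cd36 and Plac8, the adjusted p rests on naive values below background. Il1b was at least 13.7-fold higher, and the chemokine Cxcl1 at least 2.54-fold (adjusted p = 0.0831).

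Of the 7 receptors and partners of calprotectin, Cd36, a scavenger receptor, was at least 2.27-fold above naive with EAE (adjusted p = 0.0385), and 6 of 7 were above 0 with a median of 0.26. Of 12 other S100 genes, 10 were kept and none was called, with a median of 0.27. S100a5 was at -0.01 in Cx47-deficient and 1.09 in WT mice with EAE, and not well above background in naive mice, a difference of at least 56.0-fold (adjusted p = 0.0515). S100a4, a calcium-binding protein of leukocytes and fibroblasts, had a difference of 2.70 ± 0.46 (adjusted p = 0.123). Of 9 protease inhibitors, 8 were kept and Timp1, which inhibits Mmp9 among others, rose 3.02 ± 0.21 log2 units with EAE (8.09-fold, adjusted p = 0.035). It was at 1.00 in Cx47-deficient and 0.57 in WT mice with EAE, and at -2.08 and -2.38 in naive mice. Of 13 other matrix metalloproteinases 10 were kept and none was called, with a median of 0.17. Mmp19 had a difference of 2.76 ± 0.33 (adjusted p = 0.0618), with 1 of 2 naive arrays well above background.

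Other cell types moved in EAE as well. All 12 monocyte and macrophage genes were above 0, with a median of 1.70. Of these, 1 was called, beside 0.247% of all genes called higher: Plac8, at least 54.3-fold higher (limma adjusted p = 0.035). Their summed signal was 72.4 in Cx47-deficient and 60.8 in WT mice with EAE, and 27.7 and 27.2 in naive mice. All 8 kept T and NK cell genes were above 0, with a median of 4.11, or 2.24 with the 5 that were dim on both naive arrays at their bounds, and none called. The 8 endothelial genes were also all above 0, and summed to 22.1 in Cx47-deficient and 21.2 in WT mice with EAE, against 1.64 and 4.27 in naive mice. The 6 kept erythroid genes summed to 36.3 in Cx47-deficient and 28.6 in WT mice with EAE, against 52.3 and 29.3 in naive mice. Gfap, the astrocyte filament gene, was at 3.87 in Cx47-deficient and 3.83 in WT mice with EAE, and at 2.41 and 2.12 in naive mice. The part of monocytes, endothelium and blood in the granule levels was not tested.

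The genes closest to S100a9 over the 8 arrays, among 15618 named genes that 4 or more arrays showed well above background, were Ifitm1, Sirpb1b, Lcn2, Slpi, C1s1 and C1s2, each with a Pearson correlation of 0.97. Those closest to Ngp were C1s1 at 0.98, Herc6 and Klra2 at 0.97, Casp4 at 0.96, and Lilrb4a and Nfkbia at 0.95. The arrays share conditions and slides, so these values describe 8 arrays only. Within the 9 genes, Ngp had a correlation of 0.95 with S100a9, Mpo of 0.85, Camp of 0.84 and Mmp8 of 0.78. Those of Ngp and Mpo include naive values below background. Ltf had 0.57, in which the WT chronic array takes part, and Mmp9 and Elane were lower still, at 0.42 and 0.38.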

How the data were processed

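The authors deposited scanner files with spot intensity values, made with Agilent Feature Extraction 10.7.1.1 per the file headers whereas the submitters' processing notes name 9.5.1.1. This signal had background subtracted, per the file headers. Flags and other columns per spot were used as deposited. A second deposited table of the authors' processed intensity values, with a median of 50.2 in every column, served as an alternative, and its normalization was worked out from the values only. No column was left unassigned (0 of them).

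The signals were log2 transformed, less the 75th percentile of the array. Spots marked as outliers (38 to 73 per array) were left out. A probe was kept if well above background on at least 2 arrays, and the brightest kept probe over all arrays stood for a gene in the fit. limma 3.58.1 in R 4.3.3 fitted condition and genotype over 8 arrays (3 residual degrees of freedom), with Benjamini-Hochberg adjustment over 25884 genes and a threshold of 0.05. With 1 array per group, the spread behind the p-values and SE is how the genotype difference varies between conditions. A change that depends on genotype thus counts as error in the fit. That spread may also be technical, and with no statement of separate animals it is no measure of animals apart from arrays. In single pairs of arrays, 2-fold differences were counted, with no test. Folds given as "at least" set the bright group's mean against the dim arrays' own value or, if higher, the lowest signal well above background on the array. The fit was tested on simulated data.

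The 10 genes and the marker lists were chosen with earlier results of these data known. Other genes are named by a rule: from each list up to 4 genes with the largest EAE or chronic-pair difference, and any called in the contrast described. Alternatives were normexp, quantile normalization, the authors' values, other filters, probe means, the first slide alone and each array left out. Probe names were updated through RefSeq (32994 by accession, 10224 by symbol, 520 by synonym), and 12867 kept the file's name. Protein sequences were not used here. The arrays' number limits the precision. The level of the deleted gene is not reported here.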

Additional observations from a re-analysis of the deposited data

Results flagged for a closer look

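In 6 of 27 cases checked, a gene's log2 differences in the 2 genotypes had opposite signs and lay at least 1 unit apart. The rule takes in WT values near 0, such as Ltf at 0.01 for iguratimod EAE against EAE. By sign alone it leaves out Mpo there, at -1.74 in Cx47-deficient and -0.16 in WT mice, and S100a9, at -1.26 and -0.16. With 1 array per group, none of these differences was tested.

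For iguratimod EAE against EAE, S100a8 had -1.27 in Cx47-deficient and 0.16 in WT mice, a gap of -1.43. Ngp had -1.64 in Cx47-deficient and 0.18 in WT mice, a gap of -1.82. Ltf had -1.42 in Cx47-deficient and 0.01 in WT mice, a gap of -1.44. Mmp8 had -1.23 in Cx47-deficient and 0.12 in WT mice, a gap of -1.35. These 4 gaps share the same 4 arrays.

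For chronic EAE against EAE, Ltf had -2.07 in Cx47-deficient and 3.16 in WT mice, a gap of -5.23. For EAE against naive, the brighter Mmp9 probe had -0.27 in Cx47-deficient and at least 0.88 in WT mice. The gap was at least 1.14 in size (-1.14), since the WT naive array was not well above background and was set to its floor. The second Mmp9 probe did not share the fall in Cx47-deficient mice, being at -5.01 with EAE and -5.13 in naive mice. It was dim on the WT EAE and WT naive arrays.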

How the results depend on the processing

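No paired analysis was possible because each group held 1 array and the labels give no animal or batch that would join arrays across groups. A fit with slide as a block was not run, since the chronic arrays alone lay on the second slide. The count of the 9 genes called with EAE against naive was 1, and 2 with normexp or with probes well above background on all 8 arrays, where 5 genes were tested (S100a8 added, at 2.82 and 3.20), and 0 with quantile normalization, the authors' values, no filter, the first slide alone or any 1 array left out (0 to 0). S100a9 itself was between 3.26 and 3.28 under the first 4 of these and between 2.80 and 3.76 with each array left out. Against naive, 1 gene, S100a9, was called under normexp and under the stricter filter with iguratimod (2.44 and 2.57) and in chronic EAE (1.35 and 1.47). In chronic EAE against EAE the count was 4 under each of those settings (Camp and Elane added), and 0 with no filter and with any array left out (0 to 0). Leaving out each array gave counts of 0 to 0 in all contrasts. In single pairs of arrays the count of genes 2-fold apart by genotype with EAE was 0 at 3-fold and under normexp, and 1 with quantile normalization and the authors' values. In chronic EAE it was 1 at 3-fold, under normexp and with the mean of probes, with Ltf at -3.24 and Mmp9 at -0.35 under normexp.

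Directions turned for values near 0. Against naive in chronic EAE, Camp was at -0.14 under both quantile normalization and the authors' values and between -0.34 and 0.51 with each array left out, and Mmp9 was at -0.17 (normexp), -0.51 (quantile), -0.50 (the authors' values) and -0.10 (mean of probes), and between -0.94 and 1.02. Mmp9 ran from -0.46 to 1.51 with EAE and from -0.50 to 1.46 with iguratimod. Iguratimod against EAE gave Mmp9 at 0.074 under quantile normalization and 0.072 with the authors' values and from -0.24 to 0.16, S100a8 from -1.13 to 0.025, Ltf from -2.04 to 0.63 and Elane from -0.30 to 0.20. Chronic EAE against EAE ran from -1.61 to 2.69 for Ltf, -0.71 to 0.21 for Mmp8 and -1.19 to 0.22 for Mmp9. Between genotypes, Ngp was at -0.072 (normexp), -0.017 (quantile) and -0.0035 (the authors' values) and from -0.22 to 0.49, S100a8 ran from -0.32 to 0.16 and Elane from -0.22 to 0.094. The cause of these changes was not tested. Signal near background limits Ngp, Mpo, Mmp8, Mmp9 and Cxcr2.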
